A study of Arabidopsis thaliana with 42 samples.

Results

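Jacalin-related lectins are a plant protein family that binds sugars and is named after the lectin jacalin. The 10 loci described here are JR1 (AT3G16470), AT1G52000, MBP1 (AT1G52040), MBP2 (AT1G52030), NSP1 (AT3G16400), PBP1 (AT3G16420), JAL31 (AT3G16430), MLP-300B (AT3G16440), JAL33 (AT3G16450) and JAL34 (AT3G16460), out of 37336 loci in each count file. They were taken as a fixed list of locus identifiers from the family and its myrosinase-associated relatives, and the list was drawn up because JR1 and AT1G52000 had lower counts when NLP transcription factors were expressed in protoplasts. The levels in protoplasts are therefore a description and carry no test here. The seedling values are not part of that rule and were tested, though the members were chosen with earlier results of these data known.

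Many relatives of jacalin in the mustard family take part in a chemical defence. Myrosinases, the thioglucosidases TGG1 and TGG2, cleave glucosinolates when tissue is damaged, and myrosinase-binding proteins such as MBP1 and MBP2 associate with them. NSP1 joins a jacalin domain to a specifier domain that turns the products towards nitriles. PBP1 binds PYK10, a beta-glucosidase stored in the endoplasmic reticulum bodies of roots, and JAL31 is its close relative. JR1 was first known as a gene that answers to jasmonate, the wound hormone. NLP proteins (NIN-like proteins) are the transcription factors through which nitrate acts on gene expression, and NLP7 is a nitrate sensor.

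Messenger RNA was sequenced in 42 Arabidopsis libraries. Mesophyll protoplasts, which are leaf cells freed of their walls, came from wild type of the ecotype Col-0 grown in soil for 3 to 4 weeks. They transiently expressed 1 of NLP1 to NLP9 (9 groups of 2 libraries) or were controls (3 groups of 2: one for NLP7, one shared by NLP4 and 6, one shared by the other NLPs). What the control protoplasts received is not stated in the sources used here. Whole seedlings of the septuple mutant nlp2,4,5,6,7,8,9, of chl1-5 (which lacks a working NRT1.1, a nitrate transporter) and of the wild type Col-0 made up 6 groups of 3 libraries. All seedlings were 7 days old, had 2.5 mM ammonium succinate as their one nitrogen source, and spent 20 min in 10 mM of KNO3 or KCl. The wild type and septuple mutant grew 10 to a well. The labels write N and K, which were read as KNO3 and KCl. The chl1-5 seedlings have a growth entry of their own in the labels, so genotype and growth run cannot be told apart for them. The labels do not say whether replicates were separate cultures or plants, and p-values therefore measure the spread between these samples.

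Protoplast libraries held 5.64 to 27.7 M gene counts, and those of seedlings held 18.3 to 59.7 M. A count of 0 in 1 library allows up to 3 counts, which is 0.108 to 0.532 CPM (the counts-per-million scale) in protoplasts and 0.0502 to 0.164 CPM in seedlings, covering counting error only. Among the 9 NLP transcripts, the one on the label led in 14 of 18 NLP libraries and did not in 4: the library labelled NLP4 replicate 1 held NLP1, the one labelled NLP5 replicate 2 held NLP8, the one labelled NLP6 replicate 1 held NLP4 and the one labelled NLP8 replicate 2 held NLP5. The 2 libraries of the control shared by NLP1, 2, 3, 5, 8 and 9 agree within sampling noise (chi-square of 1.01 per gene over 15872 genes, p = 0.119) and were counted as 1 sample, which leaves 23 protoplast samples. In the septuple mutant NLP8 had 0 CPM in all 6 libraries, against 2.07 to 9.7 CPM in wild type. NLP7 was at 36.5 to 89.6 CPM in the mutant, against 54.5 to 117 CPM in wild type. A gene-wide count is no test of a disrupted but transcribed allele. NRT1.1 was at 49.7 to 90.9 CPM in chl1-5, against 489 to 917 CPM in wild type. The mesophyll markers were detected in every protoplast group, with summed levels of 744 to 2610 CPM, against 24600 to 87600 CPM in whole seedlings.

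The loci form 2 clusters in the genome. In RefSeq's TAIR10.1 annotation, AT1G52000, MBP2 and MBP1 lie on chromosome 1 between positions 19333088 and 19352791, all on the minus strand. NSP1, PBP1, JAL31, MLP-300B, JAL33, JAL34 and JR1 lie on chromosome 3 between positions 5566083 and 5599224. JR1 is on the minus strand there and its 3′ end overlaps that of JAL34, on the plus strand, by 631 bases. Whether reads were counted by strand is unknown from the labels, so reads from the overlap cannot be told apart. Of the 50-base windows in the exons of NSP1, 27.5% occur elsewhere in the genome, against 1.54% for MBP1, 1.53% each for PBP1 and JAL31, 0.83% for MBP2 and 0 for the other members. The counts of NSP1 are the least certain for that reason.

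The 250 bases before the transcript start are shown for JR1, AT1G52000 and MBP1, the 3 members that were lower with all 9 NLPs in protoplasts, and for the neighbours PBP1 and JAL31, which are alike in sequence and far apart in level. The sequences are RefSeq's for TAIR10.1, written 5′ to 3′ on the strand of the gene. Capitals mark the G-box CACGTG, the W-box form TTGACC and the TATA sequence TATAAA, each searched on both strands, and overlapping TATAAA matches run together. Other forms of the W-box were not searched.
JR1 (chr3:5599225-5599474, strand -): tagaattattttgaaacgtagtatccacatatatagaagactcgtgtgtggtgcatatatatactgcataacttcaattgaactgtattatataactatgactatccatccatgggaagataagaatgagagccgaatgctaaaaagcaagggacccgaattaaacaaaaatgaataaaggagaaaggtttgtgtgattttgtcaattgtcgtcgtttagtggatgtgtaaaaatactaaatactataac
AT1G52000 (chr1:19336136-19336385, strand -): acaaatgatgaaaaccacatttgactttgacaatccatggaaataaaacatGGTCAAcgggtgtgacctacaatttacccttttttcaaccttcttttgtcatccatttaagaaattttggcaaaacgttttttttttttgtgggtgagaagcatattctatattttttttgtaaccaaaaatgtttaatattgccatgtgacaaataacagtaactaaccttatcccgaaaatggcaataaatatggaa
MBP1 (chr1:19352792-19353041, strand -): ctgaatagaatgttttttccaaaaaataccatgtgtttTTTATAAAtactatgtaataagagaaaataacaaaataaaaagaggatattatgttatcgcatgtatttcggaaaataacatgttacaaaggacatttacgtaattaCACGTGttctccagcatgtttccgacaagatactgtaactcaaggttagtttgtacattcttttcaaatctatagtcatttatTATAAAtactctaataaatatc
PBP1 (chr3:5579040-5579289, strand +): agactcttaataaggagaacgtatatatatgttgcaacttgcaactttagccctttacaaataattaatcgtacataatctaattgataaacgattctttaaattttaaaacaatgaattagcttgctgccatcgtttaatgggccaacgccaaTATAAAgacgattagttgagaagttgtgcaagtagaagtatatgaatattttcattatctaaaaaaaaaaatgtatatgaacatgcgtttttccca
JAL31 (chr3:5581318-5581567, strand +): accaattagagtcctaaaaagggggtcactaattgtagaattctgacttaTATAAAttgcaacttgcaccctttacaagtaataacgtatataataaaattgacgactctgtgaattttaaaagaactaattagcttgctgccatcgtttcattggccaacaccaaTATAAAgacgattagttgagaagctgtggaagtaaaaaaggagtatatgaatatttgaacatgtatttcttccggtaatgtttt

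None of the 3 motifs is in the JR1 window. AT1G52000 has 1 TTGACC, on the other strand, 199 bases before the start. TTGACC is in 12.2% of the 27443 promoters searched. MBP1 has 1 G-box, 105 bases before the start, and the G-box is in 6.49% of all promoters. TATAAA is in the windows of 5 of the 10 members (MBP1, MBP2, PBP1, JAL31 and JAL33) and in 47.3% of all promoters. The sequence TGNCNCTT, a loosened form of the left arm of the nitrate-responsive element that NLP proteins bind, is in none of the 10 windows and in 8.84% of all promoters. GCCGCC, the core that ERF factors bind, is likewise in none of the 10 and in 1.87% of all. The windows of PBP1 and JAL31 align over 217 bases with 178 identical. Their exons are 84.9% identical over 1405 aligned bases, and those of MBP1 and MBP2 are 79.4% identical over 1601. AT1G52000 and MBP1 share 74.8% over 1218 bases.

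Protoplasts and seedlings ordered the members differently. Per kb of exon, AT1G52000 had the highest median level among the members in protoplasts, at 8.14 CPM per kb (3.48 to 85.8 over 23 samples), followed by JR1 at 5.3 CPM per kb (1.62 to 40.5), MBP1 at 4.16 CPM per kb (1.61 to 43.9) and NSP1 at 3.01 CPM per kb (1.65 to 16.3). These 4 ranges overlapped throughout. PBP1, MBP2 and JAL34 had medians of 0.191, 0.177 and 0.0711 CPM per kb and never exceeded 26 counts in a library. JAL31, JAL33 and MLP-300B had a median of 0, with 11, 15 and 1 counts over all 24 libraries.

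In seedlings PBP1 was the highest member by far, with a median of 1410 CPM per kb (788 to 1980 over 18 libraries). No other member reached its range. JAL33, JAL34 and NSP1 followed with medians of 314, 305 and 249 CPM per kb, and their ranges of 124 to 439, 192 to 537 and 145 to 364 CPM per kb overlapped. JAL31 had a median of 57.6 CPM per kb and JR1 one of 38.7 CPM per kb. AT1G52000 had a median of 9.77 CPM per kb (4.89 to 49.4), MLP-300B one of 3.22 (0.0374 to 10.8), MBP1 one of 0.987 (0 to 37.7) and MBP2 one of 0.721 CPM per kb (0 to 5.17). The ranges of these 4 overlapped, and their order differed between genotypes: MBP1 averaged 28.3 CPM per kb in septuple mutants in N, above MLP-300B at 5.84, and was at 0 in chl1-5 in N, where MLP-300B averaged 4.33 CPM per kb. The neighbours PBP1 and JAL31 thus lay in separate ranges (788 to 1980 and 27.1 to 72.1 CPM per kb). Root markers summed to 2430 to 5980 CPM in seedlings, which hold roots, and to 7.25 to 69.2 CPM in protoplasts. Protoplasts and seedlings differ in tissue, age and handling together, and no test was made between them.

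**Figure D1:**
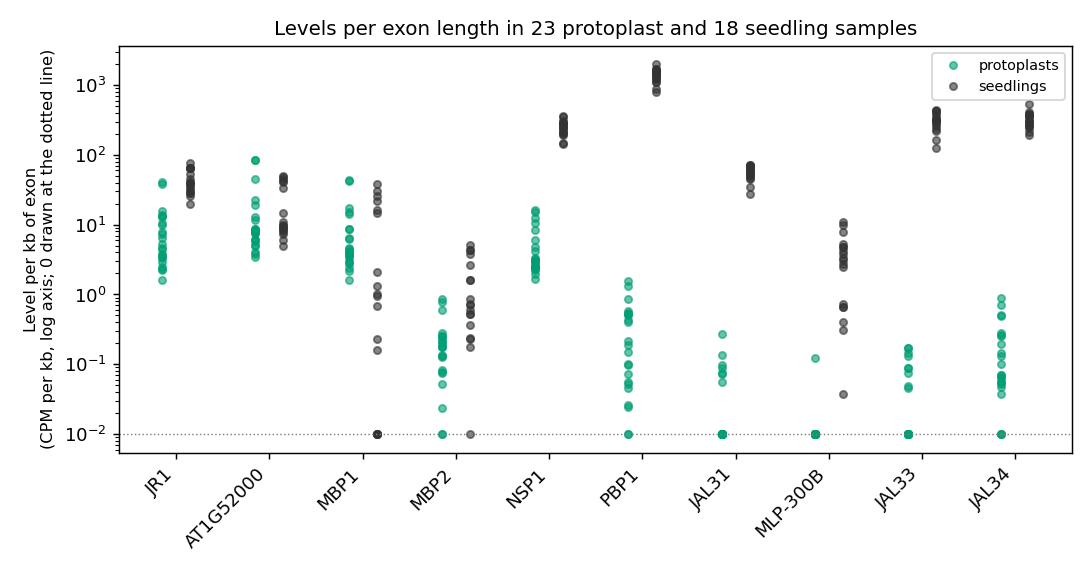
Level of each member per kb of exon (CPM per kb, log axis), 1 point per sample, in 23 protoplast samples (green) and 18 seedling libraries (dark); a level of 0 is drawn at the dotted line. PBP1 runs from 788 to 1980 CPM per kb in seedlings and reaches 1.54 CPM per kb in protoplasts, while the ranges of AT1G52000 overlap between the materials.

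JR1 was lower with every NLP than with its control in protoplasts, and at or below a log2 fold change of -1 with 8 of the 9. The library labelled NLP4 replicate 1 had 34.7 CPM and replicate 2 had 20.8 CPM, and the libraries labelled NLP6 had 17.3 and 36 CPM, against 102 and 107 CPM in their controls. With NLP7 JR1 was at 27.8 and 19.3 CPM, against 35.6 and 26.3 CPM in the controls. The NLP4 and NLP6 libraries thus lay below their controls without overlap, while the NLP7 libraries overlapped theirs. The share of all genes without overlap in protoplasts was not counted. In the third set, of NLP1, 2, 3, 5, 8 and 9, the 12 NLP libraries reached from 4.29 CPM (NLP8 replicate 1) to 14.1 CPM (NLP1 replicate 2), against 41.4 CPM in the control.

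As log2 fold changes over the control, JR1 was at -2.71 with NLP5, -2.59 with NLP8, -2.58 with NLP9, -2.06 with NLP2, -1.97 with NLP3, -1.95 with NLP6, -1.93 with NLP4, -1.67 with NLP1 and -0.38 with NLP7. Without the 4 libraries that hold another NLP than their label, it was at -2.34 for NLP4, -2.66 for NLP5, -1.54 for NLP6 and -3.27 for NLP8. NLP1, 2, 3, 5, 8 and 9 share 1 control sample, and NLP4 and NLP6 share 2, so the folds within a set are not independent of each other. The control sets differed among themselves, with JR1 means of 105, 30.9 and 41.4 CPM, and levels of different sets are not compared for that reason.

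AT1G52000, a mannose-binding lectin superfamily protein in the annotation, had larger log2 fold changes than JR1 with each of the 9 NLPs. The libraries labelled NLP4 had 52.8 and 22.1 CPM and those labelled NLP6 had 20.6 and 62 CPM, against 233 and 231 CPM in their controls. With NLP7 it was at 16.1 and 11 CPM, against 23.6 and 22.3 CPM in the controls. The third set reached from 9.46 CPM (NLP5 replicate 2) to 35 CPM (NLP1 replicate 2), against 123 CPM in the control. No NLP library of any set overlapped its controls, though the third set has 1 control sample and the share of all genes without overlap was not counted. The log2 fold changes ran from -3.25 (NLP5) to -1.88 (NLP1) with 8 NLPs, and NLP7 was at -0.75. Without the 4 mismatched libraries AT1G52000 was at -3.4 for NLP4, -2.92 for NLP5, -1.9 for NLP6 and -3.59 for NLP8.

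MBP1, which binds myrosinase, was lower with each NLP than in its controls. It was at 25.3 and 15.4 CPM in the libraries labelled NLP4 and at 15.1 and 30.3 CPM in those labelled NLP6, against 73.6 and 76.8 CPM in their controls. With NLP7 it was at 3.77 and 2.82 CPM, against 7.28 and 6.16 CPM in the controls. These too lay apart. In the third set it reached from 4.22 to 11.2 CPM, against 26.7 CPM in the control. MBP1 did not overlap its controls in any set, of which the third has 1 control sample. The share of all genes without overlap in protoplasts was not counted, so nothing is read from that. The log2 fold change of MBP1 was -1.01 with NLP7 and between -2.42 (NLP5) and -1.27 (NLP1) with the other 8. Without the 4 mismatched libraries MBP1 was at -2.3 for NLP4, -2.45 for NLP5, -1.31 for NLP6 and -2.66 for NLP8.

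**Figure D2:**
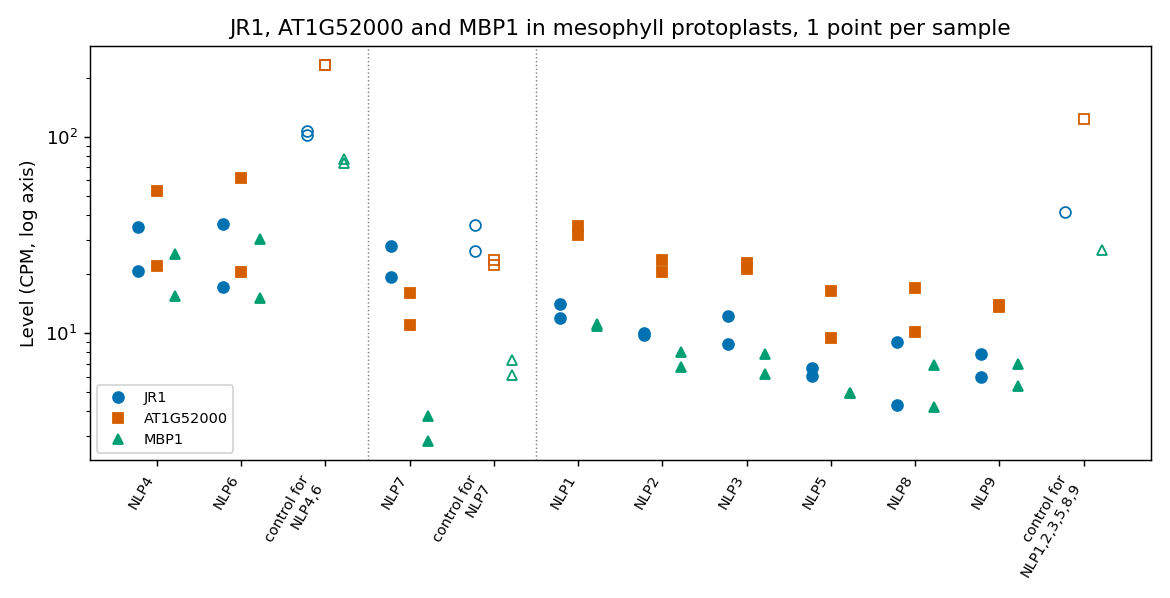
Levels of JR1 (circles), AT1G52000 (squares) and MBP1 (triangles) in mesophyll protoplasts (CPM, log axis), 1 point per sample, with NLP groups filled, their controls open and the 3 sets separated by dotted lines. The controls of the first set lie at 102 to 107 CPM for JR1 and those of the NLP7 set at 26.3 to 35.6 CPM.

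MBP2 was near the detection limit, at 0.0722 to 0.863 CPM in the 12 NLP libraries of the third set, against 2.37 CPM in the control. NSP1 showed no such pattern. Its log2 fold changes lay between -0.48 and 0.59, with 5 of the 9 below 0. PBP1 and JAL34 rested on too few counts for a fold: with NLP7 PBP1 had 10 and 11 counts, against 1 and 1 in the controls. The 6 root markers summed to 60.7 to 69.2 CPM with NLP7, against 7.39 to 8.72 CPM in its controls. Only 2 of the 6 passed the filter, and with NLP7 1 had a log2 fold change of 1 or higher and 1 had one of -1 or lower. The libraries labelled NLP6 had root marker sums of 11.8 to 65.9 CPM, against 12.9 to 13.6 CPM in their controls. Over the 7 members that passed the filter on low counts, 1 had a log2 fold change of -1 or lower with NLP7, where 3.07% of all 19311 genes had one. There were 5 with NLP1 (background 2.49%), NLP2 (6.16%), NLP4 (3.96%), NLP5 (6.56%) and NLP6 (4.46%), 6 with NLP3 (3.7%), and 4 with NLP8 (6.64%) and NLP9 (7.9%). The medians of the 7 were 0.07 with NLP7 and -2.42 (NLP5) to -1.67 (NLP1) with the others, beside medians of -0.02 to 0.03 over all genes. The NLP7 median was -0.67 without NLP7 replicate 1 and -0.62 without replicate 2 of its control. The 7 include PBP1 and JAL34 despite their few counts, and with NLP3 both are among the 6. The members were chosen on these contrasts, so nothing is read from the counts or the medians.

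**Figure D3:**
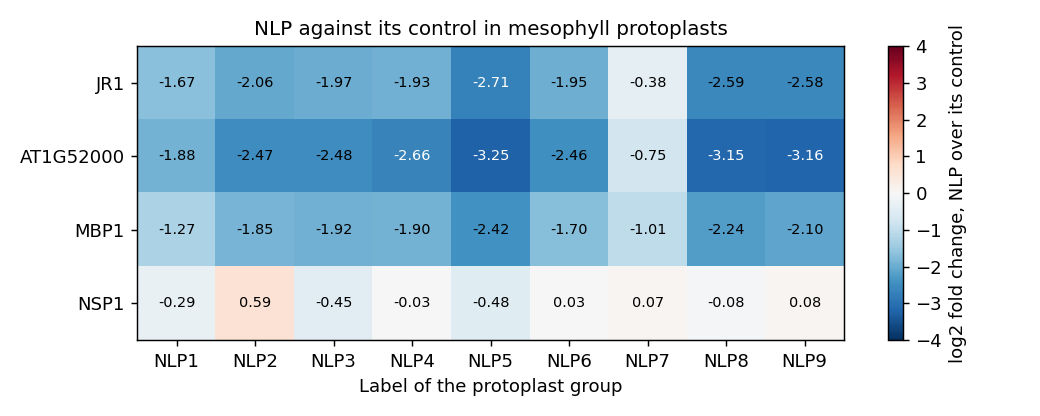
Log2 fold change of each NLP over its control in protoplasts (colour and printed value) for the 4 members with at least 35 counts in every library. JR1, AT1G52000 and MBP1 are below 0 in every column, and NSP1 lies between -0.48 and 0.59.

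The summed level of epidermis markers was lower than in the controls, except in the NLP7 set. In that set AT1G52000 and MBP1 were lower than in their controls, JR1 overlapped its controls, and the median of the 7 fitted members was 0.07. The 5 epidermis markers (ATML1, PDF1, CUT1, FDH and LTP1) summed to 30.4 to 68.7 CPM in the libraries labelled NLP4 and 30.3 to 55.2 CPM in those labelled NLP6, against 130 to 143 CPM in their controls. They summed to 19.3 to 23.5 CPM with NLP7, against 19.2 to 19.9 CPM in its controls, so the NLP7 set did not show the difference that the other sets did. In the third set they summed to 14.2 to 46.8 CPM, against 111 CPM in the control. Of the 5, 3 passed the filter. A log2 fold change of -1 or lower was seen for 2 of the 3 with NLP1, 2, 6, 8 and 9, for 1 with NLP3, 4 and 5 and for 0 with NLP7. The medians of the 3 ran from -1.64 (NLP8) to -0.5 (NLP5), and the median was 0.15 with NLP7. PDF1 was at 0 in all 3 control groups, and ATML1 was also at 0 in the controls for NLP4 and 6. The 3 guard cell markers summed to 0.332 to 1.04 CPM in the libraries labelled NLP4 and 0.582 to 0.641 CPM in those labelled NLP6, against 2.13 to 2.9 CPM in their controls. They summed to 1.18 to 1.29 CPM with NLP7, against 0.318 to 0.339 CPM in its controls, and to 0.066 to 1.25 CPM in the third set, against 0.808 CPM in the control. Only 1 of the 3 passed the filter, with log2 fold changes from -3.29 (NLP5) to -0.06 (NLP1), and 2.1 with NLP7. Vasculature markers summed to 1.92 to 9.37 CPM in NLP libraries, against 1.94 to 4.93 CPM in controls, and GC1, COBL9, CASP1 and MYB36 were at 0 in every control group. The 8 mesophyll markers summed to 1120 to 1340 CPM in the libraries labelled NLP4 and NLP6, against 1150 to 1200 CPM in their controls, and to 1040 to 1070 CPM with NLP7, against 744 to 803 CPM in its controls. In the third set they summed to 1860 to 2610 CPM, against 1890 CPM in the control, and no mesophyll marker was at 0. The 3 myrosin cell markers summed to 266 to 304 CPM in the libraries labelled NLP4 and NLP6, against 288 to 293 CPM in their controls, to 435 to 543 CPM with NLP7, against 472 to 491 CPM in its controls, and to 231 to 378 CPM in the third set, against 302 CPM in the control. The part of these markers in the levels of the lectins was not tested. In bulk samples, fewer cells of a type and less RNA per cell cannot be told apart.

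The wider lists had other medians. Over all 19311 genes, 2.49% (NLP1) to 7.9% (NLP9) had a log2 fold change of -1 or lower. The share of all genes at 1 or higher was not counted, so nothing is read from list counts at 1 or higher. Of 35 further jacalin family genes 6 passed the filter in protoplasts, with medians from -0.01 (NLP4) to 2.77 (NLP2). Of 31 fitted jasmonate genes, 0 to 9 had a log2 fold change of -1 or lower and the medians lay between -0.37 (NLP2) and -0.09 (NLP1). Of 14 fitted myrosinase, specifier and beta-glucosidase genes, 3 or 4 had such a change with each NLP and 2 to 4 had one of 1 or higher. Of 23 fitted glucosinolate genes 1 to 10 had one of -1 or lower and 2 to 5 had one of 1 or higher, with medians from -0.7 (NLP5) to -0.04 (NLP4). Of 15 touch, wounding and rapid stress genes 0 to 2 had one of -1 or lower and 0 to 1 had one of 1 or higher, with medians from -0.47 (NLP9) to 0.28 (NLP1).

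The genes most like JR1 over the 23 protoplast samples, by the root mean square difference of centred log2(CPM + 1) values, were AT1G68360 (0.363), NCED3 (0.421), which makes abscisic acid precursors, the pirin PRN (0.446), AT3G51670 (0.448) and the pectin methylesterase ATPMEPCRB (0.459). The median gene was at 1.21. AT1G52000 ranked 123 of 19310 by this measure, JAL34, on few counts, ranked 314, MBP1 348, NSP1 2154, MBP2 2338 and PBP1 2412. The samples of a set share their control, and the measure is a description.

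In seedlings 20 min of nitrate left no called change in any member, in any genotype. By edgeR's quasi-likelihood test 0 of the 10 passed in wild type (background 0.725% of 21229 genes), 0 in the septuple mutant (0%) and 0 in chl1-5 (0.122%). At an unadjusted p under 0.05 there were 2 members in wild type, 0 in the septuple mutant and 1 in chl1-5. Of all 21229 genes, 2455, 438 and 1370 had such a p, in the same order. DESeq2 called 0 in each, but gave no adjusted p for MBP2 and MLP-300B in wild type. Without the filter on low counts edgeR called MBP1 and MLP-300B in wild type (adjusted p = 0.0146 and 0.000994). JR1 averaged 99.4 ± 5.84 CPM in N and 110 ± 9.14 CPM in K in wild type (SD, n = 3 each), a log2 fold change of -0.14 with a 95% interval of -0.53 to 0.25. In the septuple mutant it averaged 184 ± 17.6 CPM in N and 161 ± 18.3 CPM in K, and in chl1-5 71.6 ± 16.7 CPM in N and 74.2 ± 5.72 CPM in K.

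MBP1 and MLP-300B, a relative of the myrosinase-binding proteins, had the lowest p of the 10 members in wild type. MBP1 was at 1.67, 0.399 and 1.19 CPM in N and at 1.79, 2.29 and 3.64 CPM in K (log2 fold change -1.25 ± 0.48 SE, edgeR adjusted p = 0.281), without overlap. MLP-300B was at 0.397, 0.864 and 0.955 CPM in N and at 0.853, 6.97 and 4.95 CPM in K (-2.51 ± 0.95, edgeR adjusted p = 0.275). The test of a different nitrate response than in wild type called 0 of the 10 for the septuple mutant (background 0.278%) and 0 for chl1-5 (background 0.00942%). The unadjusted p was under 0.05 for 1 member in each, and for 2344 and 1709 of all 21229 genes. DESeq2 called 0, but gave no adjusted p for MBP1, MBP2 and MLP-300B in the septuple mutant. Among the 21 further jacalin family genes tested, 1 fell with nitrate in wild type: AT1G52070 on chromosome 1 averaged 5.79 CPM in N and 20.3 CPM in K (-1.81 ± 0.39, edgeR adjusted p = 0.0199). Of 32 jasmonate genes tested 1 fell, the repressor JAZ6, with 40 CPM in N and 77.9 CPM in K (edgeR adjusted p = 0.0209). Of the 15 touch, wounding and rapid stress genes 1 fell, the calmodulin-like CML37, with 2.92 CPM in N and 11.1 CPM in K (-1.92 ± 0.45, edgeR adjusted p = 0.0383). Beside these lists, 0.725% of all genes were called for nitrate in wild type, and nothing is read from 1 call per list.

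More members were called between genotypes than between salts. Of all 21229 genes 154, 0 and 26 were called between salts in wild type, the septuple mutant and chl1-5. Against wild type, 477 (K) and 2300 (N) were called for the septuple mutant and 1163 (K) and 13 (N) for chl1-5. Nothing particular to the members is read from that difference. In the septuple mutant AT1G52000 and MBP1 were higher than in wild type under both salts, and JR1, MBP2 and MLP-300B were called in nitrate. By edgeR, 2 of the 10 members were higher and 0 lower in K, where 1.41% of all genes were called higher and 0.838% lower. In N 5 of the 10 were higher and 0 lower, where 4.05% of all genes were called higher and 6.78% lower. All 10 had a log2 fold change above 0 in K and in N, beside 46.3% and 52.6% of all genes. The medians of the members were 0.63 in K and 0.83 in N, beside -0.04 and 0.04 over all genes. The comparisons in K and in N use different libraries.

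JR1 had 174, 205 and 174 CPM in septuple mutants in N, against 104, 101 and 92.8 CPM in wild type in N. Every mutant library lay above every wild-type library, and the log2 fold change was 0.89 ± 0.18 (SE, edgeR adjusted p = 0.00156). In K it had 171, 140 and 172 CPM in the mutant, against 101, 108 and 119 CPM in wild type, again without overlap. That difference of 0.55 ± 0.18 did not pass (edgeR adjusted p = 0.13, 95% interval 0.16 to 0.95), and it passed with DESeq2 (adjusted p = 0.0447).

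AT1G52000 had 110, 134 and 116 CPM in septuple mutants in N, against 24.7, 25.8 and 23.5 CPM in wild type. In K it had 132, 92.5 and 121 CPM in the mutant, against 26.7, 39.6 and 26.4 CPM in wild type. The groups did not overlap under either salt. The fold was 4.85 in N (log2 2.28 ± 0.24, edgeR adjusted p = 2.2e-07) and 3.73 in K (log2 1.9 ± 0.23, edgeR adjusted p = 1.42e-05).

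MBP1 had the largest log2 fold changes among the 10 members in the septuple mutant. It had 37.8, 66 and 45 CPM in septuple mutants in N, against 1.67, 0.399 and 1.19 CPM in wild type. In K it had 28.7, 25.5 and 53.7 CPM in the mutant, against 1.79, 2.29 and 3.64 CPM in wild type. The lowest mutant library was above the highest wild-type library in both. The log2 fold change was 5.52 ± 0.53 in N (edgeR adjusted p = 1.28e-07) and 3.8 ± 0.48 in K (edgeR adjusted p = 2.72e-05).

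MBP2, the neighbour of MBP1 on chromosome 1, had 15.7, 13.1 and 11.5 CPM in septuple mutants in N, against 2.22, 0.698 and 0.546 CPM in wild type (log2 3.55 ± 0.77, edgeR adjusted p = 0.00292). In K the groups overlapped, with 13.1, 4.9 and 8.11 CPM in the mutant, against 1.61, 2.16 and 4.95 CPM in wild type (log2 1.58 ± 0.71, edgeR adjusted p = 0.338). MLP-300B had 3.6, 13 and 6.17 CPM in mutants in N, against 0.397, 0.864 and 0.955 CPM in wild type (log2 3.34 ± 0.97, edgeR adjusted p = 0.0253). In K it overlapped, at 14, 5.46 and 3.22 CPM in the mutant and 0.853, 6.97 and 4.95 CPM in wild type. The MLP-300B call in N was lost without any of the 3 wild-type N libraries or without mutant N replicate 2 (edgeR adjusted p = 0.0605 to 0.128).

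**Figure D4:**
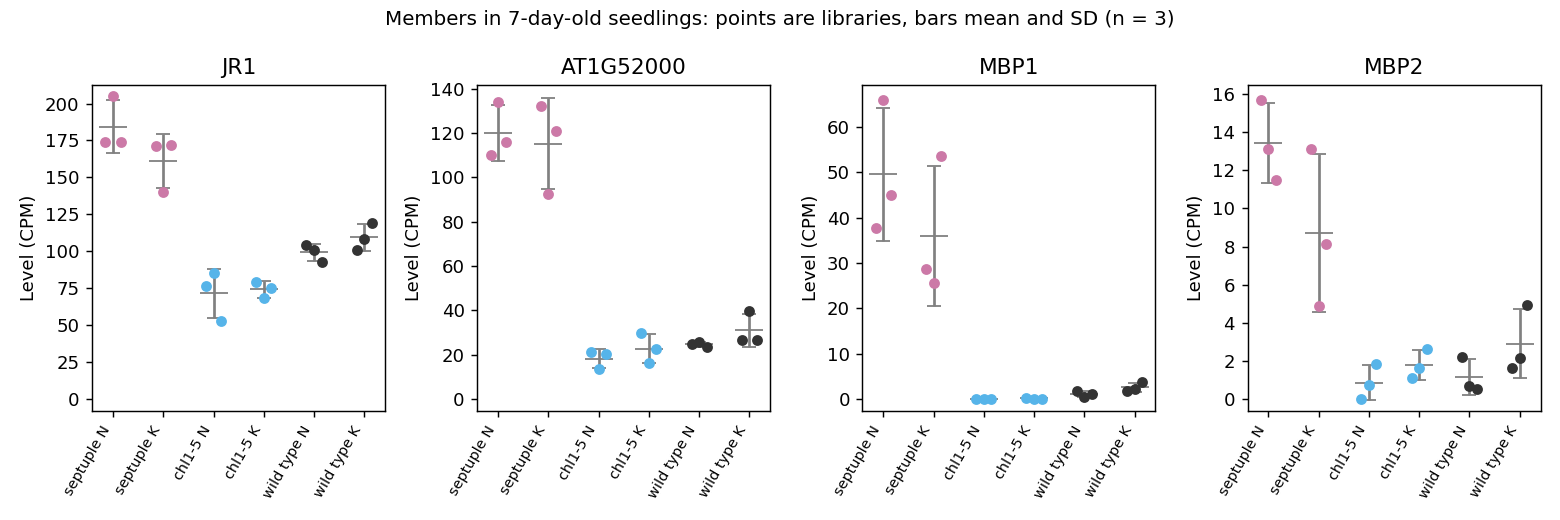
CPM of JR1, AT1G52000, MBP1 and MBP2 in 7-day-old seedlings by genotype and salt, with points for the 3 libraries and bars for mean and SD. JR1 averages 184 CPM in septuple N, 71.6 CPM in chl1-5 N and 99.4 CPM in wild type N, and MBP1 averages 49.6, 0 and 1.09 CPM in the same groups.

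The abundant members had smaller fold changes. NSP1 averaged 644 ± 95.6 CPM in septuple mutants in N and 427 ± 116 CPM in wild type in N (SD, n = 3 each), a log2 fold change of 0.59 ± 0.22 (edgeR adjusted p = 0.0819). PBP1 averaged 2480 ± 164 CPM in the mutant and 1640 ± 396 CPM in wild type (log2 0.6 ± 0.22, edgeR adjusted p = 0.0868). JAL33 averaged 586 ± 97.9 CPM in the mutant and 343 ± 141 CPM in wild type (log2 0.77 ± 0.27, edgeR adjusted p = 0.0683). These 3 did not overlap between the genotypes in N and did not pass in edgeR. DESeq2 called PBP1 and JAL33 (adjusted p = 0.0463 and 0.0448), and edgeR called JAL33 without the filter on low counts (adjusted p = 0.00623) and without wild-type N replicate 3 (adjusted p = 0.0298). In K DESeq2 called NSP1 (adjusted p = 0.0379) and edgeR called JAL34 without wild-type K replicate 2 (adjusted p = 0.041). JAL34 and JAL31 had log2 fold changes of 0.37 ± 0.25 and 0.51 ± 0.25 in N, with edgeR adjusted p = 0.397 and 0.213. In N 9 of the 10 members did not overlap between the genotypes, where 35.2% of all genes did not, and in K 4 of the 10, where 18.1% did not.

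Some related genes were also higher in the septuple mutant. Of all genes 1.41% were called higher in K and 4.05% in N. Among 21 further jacalin family genes 2 were higher in K and 7 in N, and 0 were lower. They include JAL23, at 27.3 CPM in mutants in N and 2.4 CPM in wild type (log2 3.5 ± 0.49, edgeR adjusted p = 2.76e-05), and AT1G52070, at 44.4 CPM in the mutant and 5.79 CPM in wild type (log2 2.94 ± 0.4, edgeR adjusted p = 1.87e-05). AT1G52060 was at 20.4 CPM in the mutant and 4.4 CPM in wild type. In K the 2 were JAL22, at 503 CPM in the mutant and 225 CPM in wild type, and JAL23.

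Of 21 myrosinase, specifier and beta-glucosidase genes 3 were higher in K (1.41% of all genes were) and 2 in N (4.05%), with 0 lower. BGLU18, a beta-glucosidase that releases abscisic acid from its glucose ester, was at 511 CPM in mutants in N and 101 CPM in wild type (log2 2.34 ± 0.26, edgeR adjusted p = 8.92e-07). The myrosinase TGG1 was at 219 CPM in mutants in N and 99.9 CPM in wild type (log2 1.13 ± 0.32, edgeR adjusted p = 0.0209). In K BGLU18 was joined by GLL23 and MVP1, which are GDSL-type lipase-like proteins. Of 31 glucosinolate genes 1 was higher in K, and 2 were higher and 2 lower in N. In N 4.05% of all genes were called higher and 6.78% lower, so nothing is read from the counts of this list. UGT74B1, a glucosyltransferase of glucosinolate synthesis, was at 223 CPM in mutants in N and 77.6 CPM in wild type. MAM1, which extends the chain of methionine-derived glucosinolates, was at 173 CPM in the mutant and 342 CPM in wild type.

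Of 32 jasmonate genes 3 were higher in K (1.41% of all genes were) and 8 in N (4.05%), and 0 were lower. VSP2, a vegetative storage protein that jasmonate induces, was at 28.3 CPM in mutants in N and 3.29 CPM in wild type (log2 3.11 ± 0.47, edgeR adjusted p = 6.47e-05). PDF1.2, a defensin, was at 9.66 CPM in the mutant and 0.164 CPM in wild type. JOX3, an oxygenase that inactivates jasmonate, was at 7.94 CPM in the mutant and 1.1 CPM in wild type. In K the 3 were LOX2, the lipoxygenase of jasmonate synthesis (1650 CPM in the mutant and 431 CPM in wild type), VSP2 (24.7 CPM in the mutant and 3.25 CPM in wild type) and CORI3 (272 CPM in the mutant and 70.9 CPM in wild type). The medians of the list were 0.49 in N and 0.01 in K. Of 15 touch, wounding and rapid stress genes 1 was lower under each salt, WRKY40 in K and AT4G29780 in N, and 0 were higher. Of all genes 0.838% were called lower in K and 6.78% in N.

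Cell type markers also differed between these groups. Of all genes 1.41% were called higher and 0.838% lower in K, and 4.05% and 6.78% in N. In N 7 of 8 mesophyll markers were lower in the septuple mutant, with a summed level of 24600 to 29500 CPM in the mutant and 55800 to 82800 CPM in wild type. In K 0 of the 8 were called, with 29900 to 43200 CPM in the mutant and 31500 to 47500 CPM in wild type. The 3 myrosin cell markers summed to 260 to 305 CPM in mutants in N and 120 to 209 CPM in wild type. Of the 3, 1 was called higher (TGG1), while their median log2 fold change was -0.15. TGG1 stands in the myrosinase list too. Root markers summed to 4390 to 5030 CPM in mutants in N and 2900 to 3950 CPM in wild type, with 1 of the 6 higher (COBL9). In K the myrosin cell sums were 229 to 359 CPM in the mutant and 202 to 244 CPM in wild type, and the root sums were 3740 to 5980 CPM in the mutant and 2430 to 4040 CPM in wild type. The 5 epidermis markers summed to 1310 to 1680 CPM in mutants in N and 1920 to 2630 CPM in wild type, with LTP1 lower (log2 -1.17 ± 0.26, edgeR adjusted p = 0.0038). Their median log2 fold change was -0.1 in N and 0.46 in K. In K they summed to 1590 to 2310 CPM in the mutant and 1160 to 1870 CPM in wild type, with 0 called. The 5 vasculature markers summed to 243 to 337 CPM in mutants in K and 129 to 206 CPM in wild type, with SUC2 higher (log2 0.96 ± 0.24, edgeR adjusted p = 0.0299). In N they summed to 212 to 227 CPM in the mutant and 177 to 275 CPM in wild type, with APL lower (log2 -1.47 ± 0.3, edgeR adjusted p = 0.00147). The 3 guard cell markers summed to 40.7 to 49.5 CPM in mutants in N and 29 to 32 CPM in wild type, with 0 of the 3 called. Their median log2 fold change in N was -0.33. In K they summed to 35.4 to 52.2 CPM in the mutant and 16.1 to 36.9 CPM in wild type, with 0 called. No marker of these lists was at 0 in a seedling group. Their part in the levels of the lectins was not tested.

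The chl1-5 mutant differed from wild type in MBP1. By edgeR 1 of the 10 members was lower in K, where 2.83% of all genes were called lower, and 1 in N, where 0.0471% were. It was MBP1 in both, and 0 members were higher (background 2.65% in K and 0.0141% in N). The background in K depends on single libraries: 1163 genes were called in all, 2537 when chl1-5 K replicate 2 was left out and 152 when wild-type K replicate 3 was. In N MBP1 had 0 counts in all 3 chl1-5 libraries, against 42, 12 and 35 counts in wild type. Against 3 counts over the group this is at least 26.2-fold lower (edgeR adjusted p = 0.00551). Without chl1-5 N replicate 3 the edgeR adjusted p was 0.0589. In K MBP1 had 6, 0 and 0 counts in chl1-5, against 128, 72 and 167 counts in wild type (log2 -4.74 ± 0.7, edgeR adjusted p = 0.00106). MBP2, its neighbour, overlapped wild type under both salts, at 0, 0.714 and 1.83 CPM in chl1-5 in N, against 2.22, 0.698 and 0.546 CPM in wild type.

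Between chl1-5 and wild type, 2 of the 10 members did not overlap in K, where 25.2% of all genes did not, and 5 in N, where 15.1% did not. JR1 was at 79.3, 68 and 75.2 CPM in chl1-5 in K, against 101, 108 and 119 CPM in wild type, without overlap (log2 -0.56 ± 0.18, edgeR adjusted p = 0.06, 95% interval -0.96 to -0.17). DESeq2 called it (adjusted p = 0.0304). In N it was at 76.5, 85.2 and 53 CPM in chl1-5, against 104, 101 and 92.8 CPM in wild type (log2 -0.47 ± 0.18, edgeR adjusted p = 0.312). AT1G52000 had log2 fold changes of -0.44 ± 0.23 under both salts. The order of the JR1 group means was septuple N, septuple K, wild type K, wild type N, chl1-5 K and chl1-5 N. Within each genotype the difference between salts did not pass the test. Over both salts the JR1 ranges of the 3 genotypes did not overlap. The share of all genes for which this holds was not counted, and edgeR called JR1 in chl1-5 under neither salt, so nothing is read from that order.

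MLP-300B varied within groups, at 0.528, 10.2 and 6.15 CPM in chl1-5 in N, and no difference from wild type passed (edgeR adjusted p = 0.24). NSP1, PBP1, JAL31, JAL33 and JAL34 had log2 fold changes of 0.13 to 0.37 in K and 0.32 to 0.55 in N, none of them called. Of all genes 2.65% were called higher and 2.83% lower in chl1-5 in K, and 0.0141% and 0.0471% in N. Of the further jacalin family genes AT5G35940 was lower in chl1-5 in K, at 2.94 CPM in chl1-5 and 7.53 CPM in wild type (edgeR adjusted p = 0.0203). In the myrosinase list PEN2, an atypical myrosinase, was lower in K and ESM1, an epithiospecifier modifier, was lower in N. No jasmonate or glucosinolate gene passed. Of the touch, wounding and rapid stress genes ZAT10 (log2 1.02 ± 0.29, edgeR adjusted p = 0.0405) and ERF104 (log2 1.98 ± 0.27, edgeR adjusted p = 3e-04), both transcription factors, were higher in chl1-5 in K. In K 6 of 8 mesophyll markers were higher in chl1-5, with a summed level of 66100 to 86100 CPM in chl1-5 and 31500 to 47500 CPM in wild type. In K 2 of 5 epidermis markers (PDF1 and FDH) were also higher, with a summed level of 2190 to 2680 CPM in chl1-5 and 1160 to 1870 CPM in wild type. The 3 myrosin cell markers summed to 131 to 187 CPM in chl1-5 in K and 202 to 244 CPM in wild type, without overlap and with 0 of the 3 called. Their median log2 fold change in K was -0.08. In N they summed to 115 to 273 CPM in chl1-5 and 120 to 209 CPM in wild type. The part of these markers in the levels of MBP1 and the other lectins in chl1-5 was not tested.

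**Figure D5:**
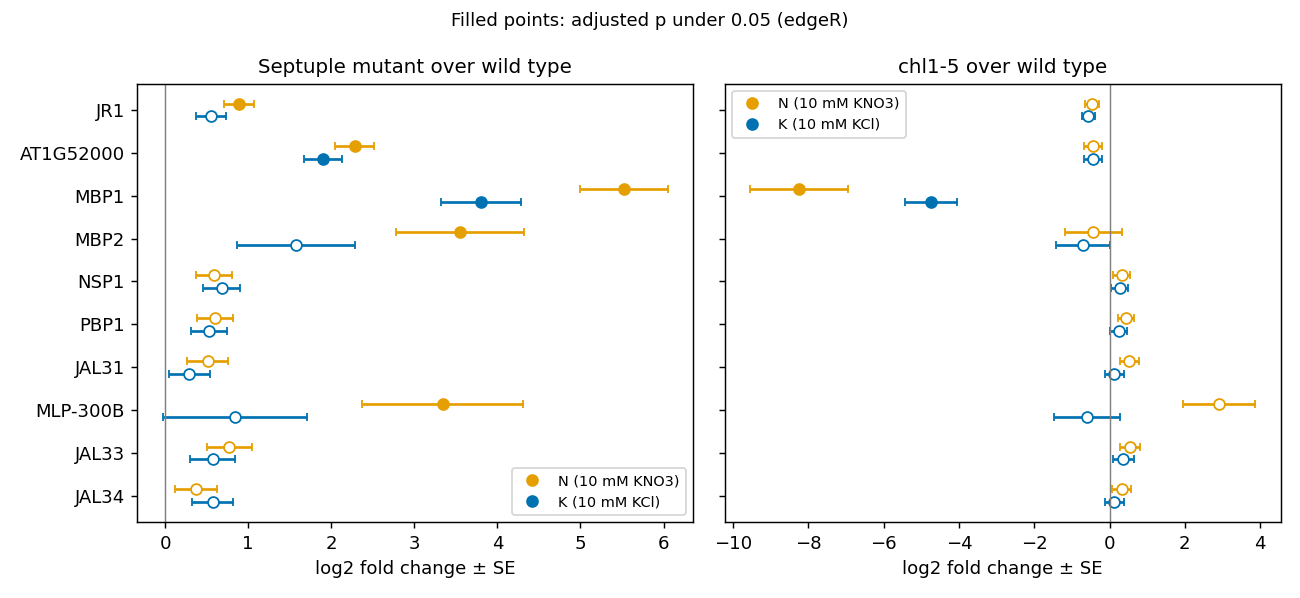
Log2 fold change ± SE of the 10 members in the septuple mutant (left) and chl1-5 (right) over wild type, in nitrate (N, orange) and KCl (K, blue), with filled points for an edgeR adjusted p under 0.05. All points on the left lie above 0, and MBP1 on the right is drawn at a fitted -8.24 in N, a value that depends on the prior count because its 3 chl1-5 libraries had 0 counts.

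The genes most like JR1 over the 18 seedling libraries, by the same measure as in protoplasts, were the potassium transporter KUP5 (0.186), the regulatory protein GRF10 (0.232), AT5G17700 (0.239), the beta-glucosidase BGLU25 (0.253) and GDPD5 (0.254). The median gene was at 0.639. NSP1 ranked 4175 of 21228 by this measure and AT1G52000 ranked 12283, and the libraries of a group share genotype and salt.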

How the data were processed

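RNA was sequenced from 24 protoplast and 18 seedling libraries. Whole-number read counts per locus were deposited by the authors, not normalized, 1 file per library. The submitters' processing notes name, without roles, HTSeq 0.6.1, featureCounts, TopHat2 2.1.1, FastQC 0.11.5 and the build TAIR10. The library kit was NEBNext Ultra II RNA, per the labels' protocols, and whether counting used strand is not stated. The 5 closing lines of each file hold reads outside genes and were left out: reads in no feature came to 0.755 to 4.97% of all entries in protoplasts and 0.651 to 5.72% in seedlings, and reads not unique to 6.43 to 71.7% and 12.1 to 58.1%. The authors' 12 comparison tables were not used.

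Protoplasts and seedlings were fitted apart in edgeR 4.0.16 (R 4.3.3), with filterByExpr, TMM scaling and the quasi-likelihood F test over all groups of a set, and p-values were adjusted by Benjamini-Hochberg over all genes tested (21229 in seedlings, 19311 in protoplasts). A gene was called at an adjusted p under 0.05. The CPM values are TMM-scaled, except those of the NLP and NRT1.1 transcripts, which are scaled to the library total alone. The replicates of 1 control were summed, so 23 protoplast samples were fitted, with 11 residual degrees of freedom, and 12 in seedlings. All 10 members were tested in seedlings and 7 were fitted in protoplasts, where JAL31, JAL33 and MLP-300B did not pass the filter. DESeq2 1.42.0, RLE scaling, no filter, a replicate block, each library left out, and the 4 mismatched libraries left out were alternatives. The code was tested on simulated data.

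The members and gene lists were chosen with earlier results of these data known. For each seedling comparison up to 3 genes of a list were named, by size of change among called genes with a mean of at least 5 CPM in either group. Of 37336 loci, 37051 were paired with RefSeq's gene table, and sequences and coordinates come from RefSeq's TAIR10.1.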

Additional observations from a re-analysis of the deposited data

How the results depend on the processing

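Of the 1020 fold changes of single members in seedlings under an alternative, 937 kept their direction and their side of the threshold, 5 lost a call, 14 gained one, and 64 that were not called changed sign. DESeq2 gave no adjusted p for 5 of the 937, none called in edgeR, and these are counted by direction alone. The septuple mutant calls of AT1G52000 and MBP1 under both salts and of JR1 and MBP2 in N held under every alternative run. Without the filter on low counts, 2 members were called for nitrate in wild type (MBP1 and MLP-300B, adjusted p = 0.0146 and 0.000994), 2 for the septuple interaction, 1 for the chl1-5 interaction and 2 in chl1-5 against wild type in N, and JAL33 was called in the septuple mutant in N (adjusted p = 0.00623). DESeq2 called 4 members in the septuple mutant in K and 2 in chl1-5 in K. Leaving out single libraries gave 0 to 1 members in chl1-5 in N, with 0 without chl1-5 N replicate 3. The cause was not tested.

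The medians of the members in protoplasts, fitted without the filter, were -0.81 (NLP1), -0.72 (NLP2), -0.93 (NLP5), -0.45 (NLP8) and -0.39 (NLP9), over more members with few counts. Without the 4 mismatched libraries they were -2.34 (NLP4), -2.66 (NLP5) and -2.15 (NLP8), beside -1.93, -2.42 and -2.02 with all libraries. The NLP6 median, -1.7 with all libraries, lay between -2.32 and -1.31 over all alternatives. With single libraries left out they ran from -1.62 to -1.32 (NLP1), -2.08 to -1.65 (NLP2), -2.32 to -1.57 (NLP4), -2.32 to -1.32 (NLP6), -0.67 to 0.18 (NLP7), -2.12 to -1.92 (NLP8) and -1.99 to -1.89 (NLP9).

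Counts of all genes called moved more. For nitrate in wild type, in the septuple mutant and in chl1-5, no filter gave 549, 12 and 69 and DESeq2 gave 505, 4 and 141, beside 154, 0 and 26. For the septuple and chl1-5 interactions they gave 443 and 54, and 490 and 37, beside 59 and 2. For the septuple mutant against wild type in K they gave 843 and 811, beside 477. For chl1-5 against wild type they gave 2457 and 2616 in K, beside 1163, and 351 and 232 in N, beside 13. Leaving out single libraries gave 82 (wild-type N replicate 2) to 208 (wild-type K replicate 2) genes for nitrate in wild type, 0 in the septuple mutant, 15 (N replicate 2) to 46 (K replicate 2) in chl1-5, 32 (septuple N replicate 2) to 163 (wild-type K replicate 2) for the septuple interaction and 0 to 21 (chl1-5 K replicate 2) for the chl1-5 interaction. For the septuple mutant it gave 246 (wild-type K replicate 3) to 485 in K and 1219 (septuple N replicate 2) to 2189 in N, beside 2300 with all libraries. For chl1-5 it gave 152 (wild-type K replicate 3) to 2537 (chl1-5 K replicate 2) in K and 6 to 18 in N. Same-numbered replicates did not deviate together (correlations of -0.42 to 0.3), so the numbers were not taken as pairs. The replicate block left the members called at 0 for nitrate in each genotype and for both interactions, 2 and 5 in the septuple mutant and 1 and 1 in chl1-5 (K and N), and gave 706 genes in chl1-5 in K. In protoplasts, with 2 libraries or 1 sum a group, JAL31, JAL33 and MLP-300B had at most 5, 3 and 1 counts per library, and MBP2, PBP1 and JAL34 at most 26, 18 and 19.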
